A study of Mus musculus with 32 samples.

Results

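The 8 genes described here are 8 of the 31053 counted: Prdm1, Prdm14, Kit, Ifitm1, Ifitm2, Ifitm3, Nanos3 and Dnd1. They were chosen by name for their part in the specification of primordial germ cells, without a threshold on any value, and all 8 were among the 15280 genes tested. RNA was sequenced from the 3′ ends of transcripts in 32 libraries of C1, a mouse embryonic stem cell (ESC) line that lacks endogenous β-catenin and carries a dox-inducible fusion protein, made of a destabilizing domain joined to mCherry and to β-catenin S33Y, a form that is always active. Dox turns on its transcription and TMP protects the protein from degradation. The libraries form 8 groups of 4 biological replicates.

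All groups shared the knockout, the fusion gene and 48 h of 10 μM TMP before sorting. C1 cells had no dox and were sorted as living cells, while C1M and C1H cells also had 100 ng/mL dox and were sorted for middle and high mCherry signal, so that dox, the sort on mCherry and the fusion protein cannot be told apart at day 0. These 3 groups were collected at day 0 from pluripotent culture. This was serum-free medium with leukemia inhibitory factor (LIF) and inhibitors of GSK3 and MEK, and all groups passed through it. LIF and both inhibitors were left out for the 4 days of differentiation, so each change over 4 days also spans their removal. The other groups were collected after 4 days in NDiff227 medium, a serum-free medium in which ESCs leave pluripotency, and the methods name no factor added to induce germ cells. During these days C1T (from C1) had TMP alone, C1MV and C1HV (from C1M and C1H) had DMSO in place of both inducers, and C1MDT and C1HDT had dox and TMP throughout. Each comparison of C1MV or C1HV with C1T therefore also sets cells without TMP against cells with it. In C1MDT vs C1MV and C1HDT vs C1HV (constant induction against withdrawal below), dox, TMP and the fusion protein cannot be told apart.

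In the mouse embryo primordial germ cells arise from a few epiblast cells that receive BMP and WNT signals. PRDM1 (also called BLIMP1) represses the somatic programme in these cells, PRDM14 restores pluripotency genes and erases epigenetic marks, and both act with TFAP2C. The receptor KIT carries survival and migration signals, IFITM proteins mark the surface of the precursors, and the RNA-binding proteins NANOS3 and DND1 keep the cells alive once they are specified. Several of these genes are also active outside the germ line: Prdm14 and Kit in ESCs, Prdm1 in endoderm and blood lineages, and IFITM genes in the response to interferon.

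Library totals ran from 1366951 to 3648787 reads on genes, and 3 counts, used as a floor, came to 0.837 to 2.14 CPM (counts normalized to the TMM-scaled library size, the unit of every level below). These limits cover counting error only. Ctnnb1, which the line lacks in its own form and carries in the fusion, stood at 7.81 ± 2.6 CPM in C1 (SD, n = 4), 12.2 ± 3.8 in C1M and 41.1 ± 5.7 in C1H. The 8 markers of naive ESCs were all above the floor at day 0, where their summed level was 5651 to 5786 CPM in C1, 4592 to 4730 in C1M and 4869 to 5080 in C1H, without overlap. Of these markers 2 were higher and 5 lower in C1M vs C1 (median log2 fold change -0.45), where 14.3% of all genes tested were higher and 12% lower (median 0.06). In C1H vs C1, 1 was higher and 4 lower (median -0.31), beside 13.8% and 12.1% of all genes (median 0.04). The part of these markers in the day 0 differences described below was not tested. At day 4 the sum was 436 to 1247 CPM. Markers of primitive and visceral endoderm summed to 182 to 341 CPM in C1T, to 496 to 683 CPM in the withdrawn groups C1MV and C1HV, and to 782 to 945 CPM under constant induction. In C1T most of this sum came from a single marker, Ttr, whose level is given below. These cultures are mixtures, and a lower level may mean fewer cells with the transcript or less of it per cell, which bulk RNA cannot tell apart.

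Counts of the 8 genes past the threshold (edgeR's quasi-likelihood test, Benjamini-Hochberg FDR under 0.05) were read against the shares of all tested genes. In C1M vs C1, 2 of the genes were higher and 3 lower, where 14.3% of all genes tested were higher and 12% lower. C1H vs C1 gave 3 higher and 2 lower (13.8% and 12.1% of all genes), and C1H vs C1M gave 1 in each direction (0.713% and 1.06%). Over the 4 days, 1 gene rose and 4 fell in C1T vs C1 (24.4% and 24.9%), 2 rose and 3 fell in C1MV vs C1M (22% and 23.9%), and 1 rose and 5 fell in C1MDT vs C1M (24.5% and 27.9%). In C1HV vs C1H 1 rose and 3 fell (22% and 25.1%), and in C1HDT vs C1H 1 rose and 5 fell (26.3% and 29.4%). At day 4 the 4 genes that passed in C1MV vs C1T were all higher (15.3% of all genes higher, 14.9% lower), as were the 4 that passed in C1HV vs C1T (13.7% and 14.3%). C1MDT vs C1T gave 2 higher and 1 lower (16.9% and 16.5%), and C1HDT vs C1T gave 1 higher and 2 lower (17.4% and 16.1%). With constant induction against withdrawal, the 5 genes that passed in C1MDT vs C1MV were all lower (6.64% of all genes higher, 5.95% lower), and so were the 4 that passed in C1HDT vs C1HV (9.1% and 6.88%). The change over 4 days differed from that of C1T for 4 genes in the C1MV arm (22.5% of all genes), 2 in the C1HV arm (21.9%), 3 in the C1MDT arm (24.4%) and 4 in the C1HDT arm (25.2%). With 8 genes these counts are no result about the set, and the account below turns on single members. Between the fractions at day 4, edgeR called 0 of the 8 genes in C1HV vs C1MV, where 0.00654% of all genes passed, and 0 in C1HDT vs C1MDT, where 0% passed. DESeq2 called 0 of them in both, and an unadjusted p under 0.05 stood for 3 of the 8 (Ifitm1, Ifitm2 and Kit, all lower in C1HV) and for 0 of the 8, against 1150 and 814 of all genes.

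**Figure D1:**
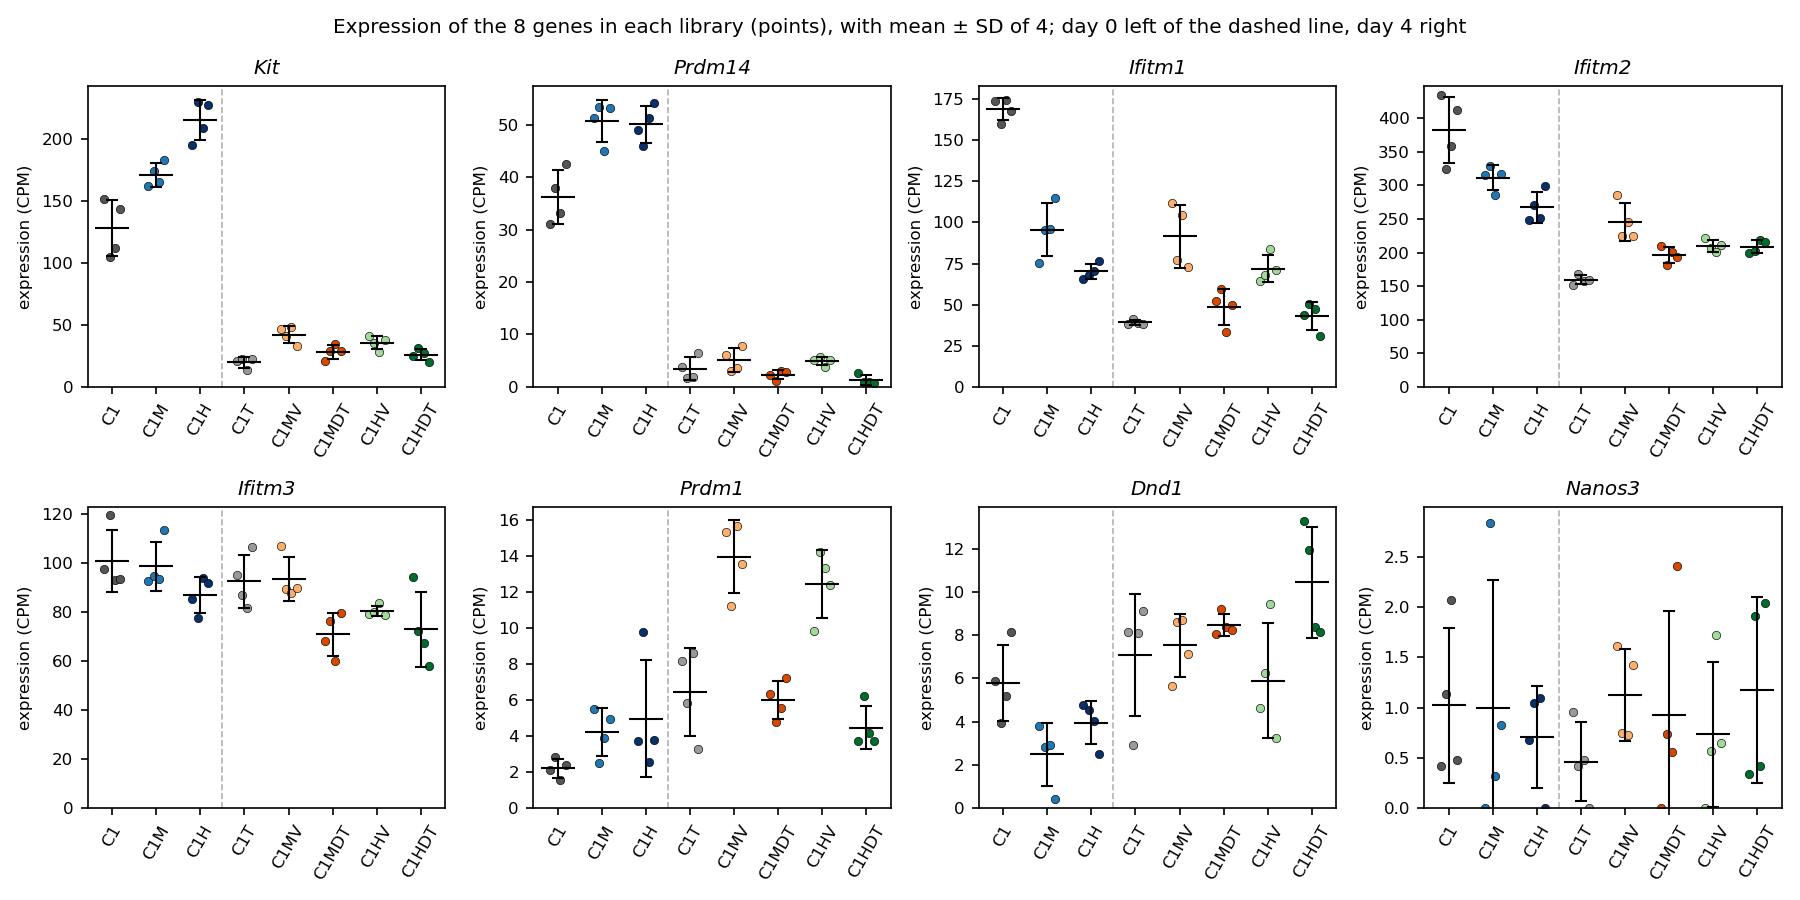
Expression of the 8 genes in CPM (vertical axis, from 0) in each of the 32 libraries (points), by group, with the mean and SD of 4 libraries; SD bars are cut at 0. Kit and Prdm14 drop between day 0 and day 4 in every arm, Ifitm1 is highest in C1, Prdm1 is highest in C1MV and C1HV, and Nanos3 stays under 3 CPM in every library.

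Prdm14 (ENSMUSG00000042414; GRCm38 chromosome 1, 13113457 to 13127163, minus strand) was a gene of the pluripotent cultures. In C1 it was counted at 31, 37.9, 33.2 and 42.7 CPM in replicates 1 to 4, in C1M at 51.3, 53.5, 44.9 and 53.2 CPM, and in C1H at 49, 46.0, 51.3 and 54.2 CPM. Every library of C1M and C1H lay above every library of C1. The log2 fold change was 0.49 in C1M vs C1 (SE 0.15, edgeR FDR = 0.011) and 0.47 in C1H vs C1 (SE 0.15, edgeR FDR = 0.0148), that is 1.40-fold and 1.39-fold. Both calls were lost without C1 replicate 1, at 0.40 (edgeR FDR = 0.0772) and 0.38 (edgeR FDR = 0.0988). C1H and C1M overlapped, with a log2 fold change of -0.02 (edgeR FDR = 0.984, SE 0.14).

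After 4 days little Prdm14 was left in any arm. C1T held 3.84, 1.67, 1.91 and 6.52 CPM, C1MV 6.05, 2.99, 3.63 and 7.84 CPM, C1HV 5.16, 5.68, 3.87 and 5.20 CPM, C1MDT 2.31, 1.11, 3.07 and 2.75 CPM, and C1HDT 2.72, 0.955, 0.837 and 0.681 CPM. No library of day 4 reached the lowest library of day 0, and 3 of the 4 C1HDT libraries had 2 reads each, under the floor. The log2 fold change over the 4 days was -3.47 in C1T vs C1 (edgeR FDR = 4.9e-26, SE 0.26), -3.40 in C1MV vs C1M (edgeR FDR = 1.3e-31, SE 0.22) and -3.34 in C1HV vs C1H (edgeR FDR = 2.7e-29, SE 0.22). Where inducers were kept the change was -4.39 in C1MDT vs C1M (edgeR FDR = 9.8e-39, SE 0.24) and -5.16 in C1HDT vs C1H (edgeR FDR = 8.5e-41, SE 0.26). The direct comparison at day 4 put C1HDT below C1HV by a log2 fold change of -1.82 (edgeR FDR = 0.000867, SE 0.44) without overlap. It ran from -2.54 to -1.59 with single libraries left out and passed each time. C1MDT vs C1MV gave -0.99 (edgeR FDR = 0.0591, SE 0.37), which did not pass with edgeR and did with DESeq2 (adjusted p = 0.0469). The decrease in the C1H to C1HDT arm exceeded that of C1 to C1T by -1.69 (SE 0.50, edgeR FDR = 0.00586), a difference lost without C1T replicate 4 (-1.27, edgeR FDR = 0.0835). The C1MDT arm did not pass this test (-0.92, SE 0.45, edgeR FDR = 0.126). In C1HDT vs C1T itself the libraries overlapped, and the value of -1.22 (SE 0.47, edgeR FDR = 0.0346) lost its call without any one of 5 libraries (C1T replicates 1 and 4, C1HDT replicates 2, 3 and 4) and in a fit of the 8 libraries of C1HDT and C1T alone (edgeR FDR = 0.067). With single libraries left out, the value ran from -1.92 to -0.82.

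The order of the Prdm14 means was C1M, C1H, C1, C1MV, C1HV, C1T, C1MDT and C1HDT, and the neighbours from C1MV to C1MDT differed by less than the larger SD of each pair. Over all 32 libraries the tested genes whose log2 CPM was most like that of Prdm14 were Cdc5l (Pearson's r = 0.972) and Nanog (r = 0.971), a core pluripotency factor. These r values describe libraries that share the day and the group, and with a smaller prior count Nanog (0.967) and Ddr2 (0.963) led.

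Prdm1 (ENSMUSG00000038151; chromosome 10, 44437177 to 44528501, minus strand) followed another course and was lowest in C1, the pluripotent cells without dox. C1 held 2.10, 2.83, 1.56 and 2.40 CPM, which is 3 to 5 reads per library, and C1M held 5.51, 2.48, 3.91 and 4.95 CPM. C1H held 3.75, 9.75, 2.56 and 3.78 CPM, and its replicate 2 stood apart from the other 3 libraries. The log2 fold change of 1.17 in C1H vs C1 (edgeR FDR = 0.0257, SE 0.41) rested on it: without C1H replicate 2 the value was 0.59 (edgeR FDR = 0.382), and the call was also lost without C1 replicate 1 or 3 (edgeR FDR = 0.0691 and 0.0762). For C1M vs C1 the value was 0.89 (SE 0.43, edgeR FDR = 0.116).

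At day 4 the withdrawn groups stood out. C1MV held 15.3, 11.2, 15.6 and 13.5 CPM of Prdm1 and C1HV 9.81, 14.2, 13.3 and 12.4 CPM. C1T held 8.15, 5.83, 8.58 and 3.26 CPM, C1MDT 6.34, 4.79, 5.58 and 7.22 CPM, and C1HDT 3.74, 6.21, 4.19 and 3.74 CPM. Every library of C1MV and C1HV was above every library of the other 3 day 4 groups. Over the 4 days Prdm1 rose 2.95-fold in C1T vs C1 (log2 fold change 1.56, SE 0.41, edgeR FDR = 0.000728), 3.34-fold in C1MV vs C1M (1.74, SE 0.30, edgeR FDR = 2.6e-07) and 2.46-fold in C1HV vs C1H (1.30, SE 0.30, edgeR FDR = 0.00012). In the arms with constant induction the values were 0.52 in C1MDT vs C1M (SE 0.33, edgeR FDR = 0.189) and -0.20 in C1HDT vs C1H (SE 0.34, edgeR FDR = 0.644), which did not pass.

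Set against C1T, Prdm1 was higher in C1MV by 1.07 (SE 0.29, edgeR FDR = 0.00179) and in C1HV by 0.90 (SE 0.30, edgeR FDR = 0.0149), the latter at 0.76 (edgeR FDR = 0.0598) without C1T replicate 4. Constant induction went with lower Prdm1 than withdrawal in both fractions, by -1.22 in C1MDT vs C1MV (SE 0.28, edgeR FDR = 0.000601) and -1.50 in C1HDT vs C1HV (SE 0.31, edgeR FDR = 9.5e-05). The change over 4 days in the C1HDT arm was below that of C1T by -1.76 (SE 0.54, edgeR FDR = 0.00841), which without C1H replicate 2, the library with 9.75 CPM at day 0, became -1.19 (edgeR FDR = 0.124). For the C1MDT arm this difference was -1.04 (SE 0.54, edgeR FDR = 0.155).

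Prdm1 is also expressed in endoderm, and markers of that lineage changed at day 4. Of 10 markers of primitive and visceral endoderm, 9 were higher in each of C1MV, C1HV, C1MDT and C1HDT than in C1T (13.7 to 17.4% of all genes were), while the remaining one, Ttr, was at 211 CPM on average in C1T and 128 in C1MDT. Gata6, a regulator of primitive endoderm, went from 2.95 ± 1.1 CPM in C1T to 32.1 ± 4.7 in C1MV and 44.6 ± 4.8 in C1MDT. Sox17, a factor of both endoderm and, in human cells, germ cell fate, had no library above 3 counts in C1T and stood at 17.0 ± 4.4 CPM in C1MV and 20.4 ± 2.5 in C1MDT. Between constant induction and withdrawal, 4 of the 10 markers passed in each fraction, all 4 of them higher under constant induction (6.64% of all genes were higher in C1MDT vs C1MV and 9.1% in C1HDT vs C1HV), where Prdm1 was lower. Blood and endothelial markers, of another place of Prdm1 expression, summed to 5.19 to 8.39 CPM in C1, 18.6 to 23.5 in C1M and 16.0 to 24.9 in C1H, and to 7.18 to 23.9 CPM at day 4. Of 6 tested, 3 passed in C1M vs C1 and 3 in C1H vs C1, all higher (14.3% and 13.8% of all genes were). Of the 7 blood and endothelial markers listed, 3 in C1, 4 in C1M and 5 in C1H had any library above 3 counts. Whether blood or endothelial cells were present, and what either lineage contributed to the Prdm1 levels, was not tested.

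The means of Prdm1 ran in the order C1MV, C1HV, C1T, C1MDT, C1H, C1HDT, C1M and C1, with gaps beyond the larger SD only below C1HV and above C1. Gm26917 (r = 0.846) and Gli1 (r = 0.836), a target of hedgehog signals, had the most similar profiles over the 32 libraries. Gm26917 is an unnamed gene model in the annotation.

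**Figure D2:**
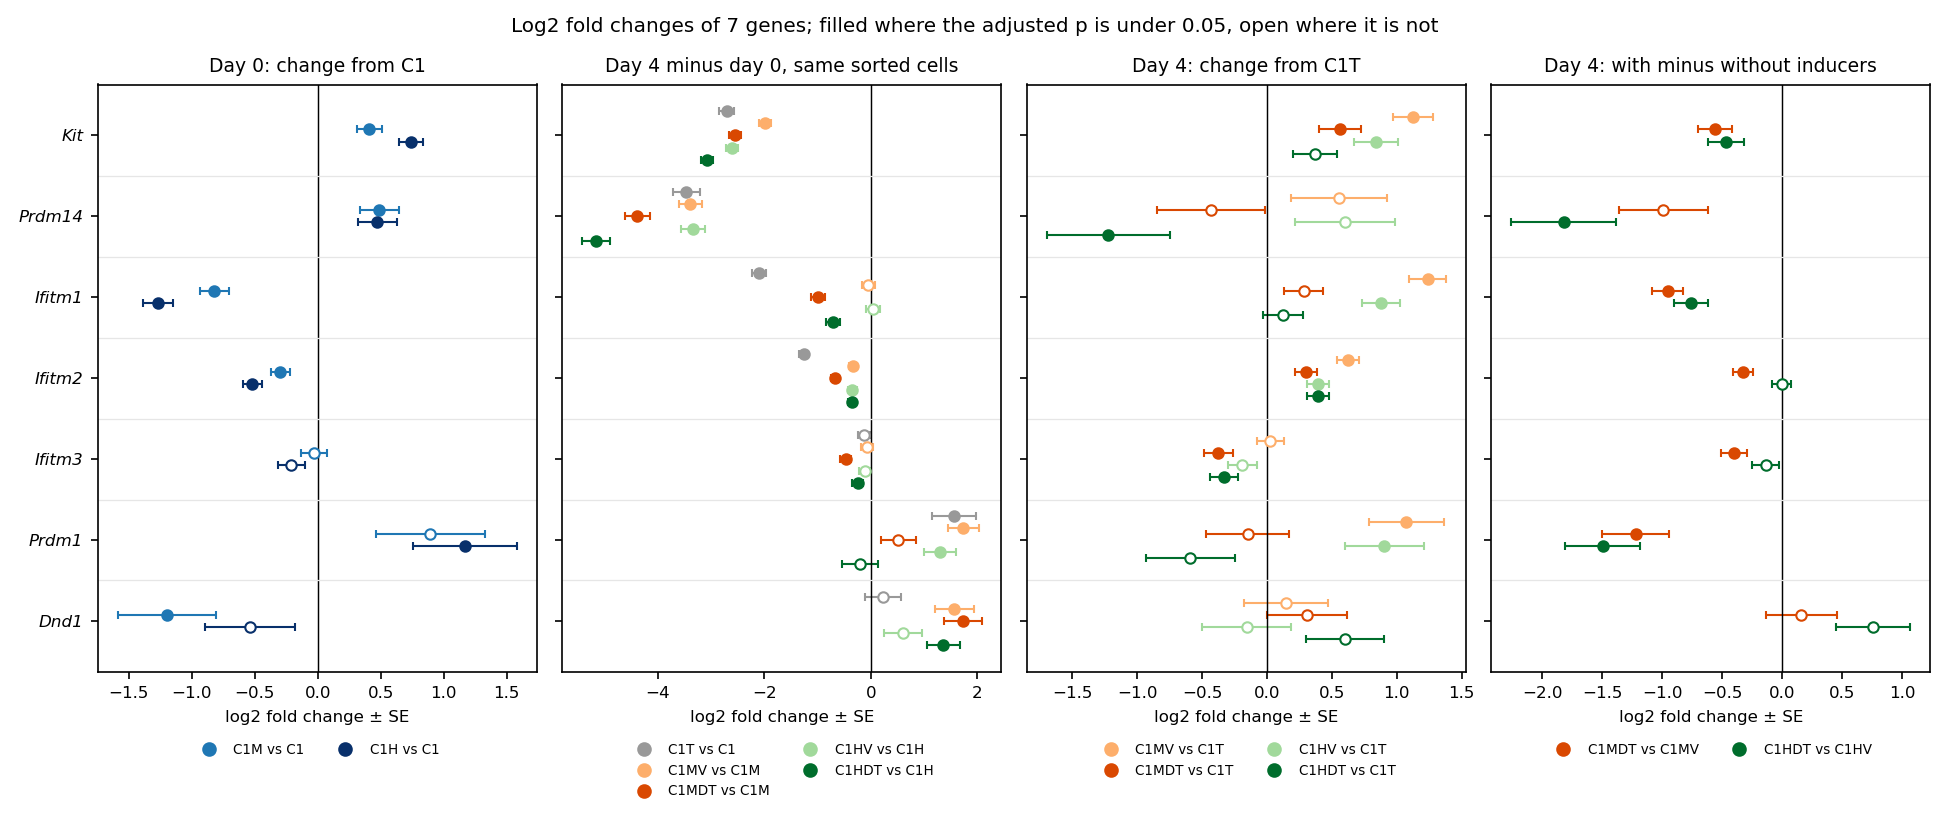
Log2 fold changes (horizontal axis, with SE) of 7 of the 8 genes in 4 kinds of comparison, filled where edgeR's FDR was under 0.05 and open where it was not; Nanos3 is left out because it stood near the floor. In the second panel Kit and Prdm14 lie between -1.99 and -5.16 in all 5 arms, while Ifitm1 lies near 0 in the 2 withdrawn arms and at -2.11 in C1T vs C1.

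Kit (ENSMUSG00000005672; chromosome 5, 75574916 to 75656722, plus strand), the receptor of stem cell factor, was highest in induced pluripotent cells. It was counted at 152, 105, 113 and 144 CPM in C1, at 162, 174, 165 and 184 CPM in C1M, and at 196, 230, 209 and 228 CPM in C1H. The 3 groups did not overlap and followed the order of the sort. C1M exceeded C1, with a log2 fold change of 0.41 (edgeR FDR = 0.000714, SE 0.10) and so did C1H, with 0.74 (edgeR FDR = 4.1e-10, SE 0.10). The step from C1M to C1H was 0.33 (edgeR FDR = 0.0371, SE 0.09), and it kept its sign but lost the call without any one of 6 of the 8 libraries, with values of 0.30 to 0.35 there (edgeR FDR up to 0.165).

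Differentiation lowered Kit in every arm. At day 4 C1T held 21.1, 22.1, 13.3 and 22.8 CPM, C1MV 46.3, 41.2, 48.3 and 32.8 CPM, and C1HV 41.3, 35.2, 28.4 and 37.7 CPM. C1MDT held 20.8, 28.7, 34.9 and 28.9 CPM and C1HDT 24.5, 31, 27.6 and 20.4 CPM. The log2 fold change over the 4 days was -2.71 in C1T vs C1 (SE 0.14, edgeR FDR = 2.8e-38), -1.99 in C1MV vs C1M (SE 0.11, edgeR FDR = 1e-33), -2.55 in C1MDT vs C1M (SE 0.12, edgeR FDR = 1.7e-42), -2.61 in C1HV vs C1H (SE 0.12, edgeR FDR = 2.4e-42) and -3.08 in C1HDT vs C1H (SE 0.12, edgeR FDR = 7e-50). Of the 4 induced arms, C1MV fell less than C1T, by a difference of 0.72 (SE 0.19, edgeR FDR = 0.00196), and the other 3 differences did not pass (edgeR FDR from 0.17 to 0.781).

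The libraries of C1MV and C1HV were all above those of C1T, by log2 fold changes of 1.12 (edgeR FDR = 1.3e-09, SE 0.16) and 0.84 (edgeR FDR = 2e-05, SE 0.17). C1MDT overlapped with C1T and was higher by 0.56 (edgeR FDR = 0.00365, SE 0.16), with edgeR FDR = 0.0511 without C1T replicate 3 and 0.0521 without C1MDT replicate 3. C1HDT vs C1T gave 0.37 (edgeR FDR = 0.0798, SE 0.17), which passed without C1HDT replicate 4 (0.48, edgeR FDR = 0.0282). Kit was lower with dox and TMP kept than with both withdrawn, by -0.56 in C1MDT vs C1MV (SE 0.14, edgeR FDR = 0.00174) and -0.47 in C1HDT vs C1HV (SE 0.15, edgeR FDR = 0.0218), with overlapping libraries in both. The second of these was lost without C1HV replicate 1 (-0.38, edgeR FDR = 0.111) or C1HDT replicate 4 (-0.38, edgeR FDR = 0.116).

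In order of its means Kit ran C1H, C1M, C1, C1MV, C1HV, C1MDT, C1HDT and C1T, where C1MV and C1HV, and C1MDT and C1HDT, differed by less than the larger SD. Srgap1 (r = 0.978) and Tacc1 (r = 0.976) had the profiles most like it. Kit and Prdm14 correlated with each other at r = 0.943 over the 32 libraries, 0.707 over the 12 of day 0 and 0.435 over the 20 of day 4. Kitl, the ligand of KIT, was scarce, with means between 0.747 and 3.90 CPM, and its highest mean was that of C1T, where Kit was lowest.

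Ifitm1, Ifitm2 and Ifitm3 encode small membrane proteins, and Ifitm3 (also called Fragilis) is an early surface marker of germ cell precursors. They lie in one cluster on chromosome 7 of GRCm38, in the order Ifitm5, Ifitm2, Ifitm1, Ifitm3 and Ifitm6. Ifitm2 (ENSMUSG00000060591) spans 140954837 to 140955987 on the minus strand, Ifitm1 (ENSMUSG00000025491) 140967221 to 140969825 on the plus strand, and Ifitm3 (ENSMUSG00000025492) 141009586 to 141010770 on the minus strand, with 11.2 kb between Ifitm2 and Ifitm1 and 39.8 kb between Ifitm1 and Ifitm3. Ifitm2 overlaps the gene model Gm45717 on its own strand. The counts used uniquely aligned reads only. Of the 75-base stretches in the last 500 bases of its transcripts, Ifitm2 shares 32.6% with other genes, so its level is uncertain, against 1.41% for Ifitm1, 0.939% for Ifitm3 and 0 for the other 5 members.

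Because the members of the cluster differed in their course, the sequences upstream of their RefSeq start sites are shown (GRCm38.p6, 5′ to 3′ on the strand of the gene, cut where the next annotated exon of the gene begins). They cover chr7:140967826-140968027 for Ifitm1, which lies inside the annotated span of the gene between exons, chr7:140955988-140956211 for Ifitm2 and chr7:141010771-141010994 for Ifitm3. Capitals mark matches to GAAA and GAAA with any 2 bases between them, the core of the interferon-stimulated response element, and the longest runs that Ifitm2 and Ifitm3 share, tgggacaagtc and agtaatttgat, which have 11 bases each.
Ifitm1: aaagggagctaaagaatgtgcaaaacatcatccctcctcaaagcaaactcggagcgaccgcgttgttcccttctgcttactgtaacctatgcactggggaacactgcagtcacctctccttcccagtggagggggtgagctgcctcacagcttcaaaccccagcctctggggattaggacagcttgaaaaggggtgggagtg
Ifitm2: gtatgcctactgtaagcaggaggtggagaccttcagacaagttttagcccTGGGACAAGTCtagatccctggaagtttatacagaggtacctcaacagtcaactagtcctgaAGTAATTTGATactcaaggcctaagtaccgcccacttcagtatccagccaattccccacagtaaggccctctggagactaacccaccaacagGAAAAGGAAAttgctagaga
Ifitm3: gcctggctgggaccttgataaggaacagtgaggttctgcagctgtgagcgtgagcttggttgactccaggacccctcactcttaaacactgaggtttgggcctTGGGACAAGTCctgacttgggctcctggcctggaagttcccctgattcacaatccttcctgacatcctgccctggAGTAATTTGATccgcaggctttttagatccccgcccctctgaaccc
Searched on both strands over the 250 bases before each start, only Ifitm2 of the 3 held this core, from -46 to -37, which 2.98% of 32851 RefSeq promoters of that length hold. None of the 3 windows held CTTTGAT, a core sequence of TCF/LEF binding that 3.21% of the promoters hold. These matches are a description of letters only.

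Ifitm1 was highest in pluripotent C1 cells and lower with each step of the sort. C1 held 174, 160, 174 and 168 CPM, C1M 75.5, 95.4, 96.1 and 115 CPM, and C1H 65.7, 68.3, 70.3 and 76.4 CPM. C1 did not overlap with either induced group, while C1M replicate 1 fell within the range of C1H. The log2 fold change was -0.82 in C1M vs C1 (SE 0.12, edgeR FDR = 4.3e-08) and -1.27 in C1H vs C1 (SE 0.12, edgeR FDR = 1.1e-13). From C1M to C1H it was -0.45 (SE 0.12, edgeR FDR = 0.0355), a call lost without any one of 6 of the 8 libraries (edgeR FDR from 0.0758 to 0.158) and with a replicate block (edgeR FDR = 0.0688).

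Its course over the 4 days differed between arms. C1T reached 38.4, 41.2, 38.6 and 38.5 CPM, a decrease of -2.11 from C1 (SE 0.13, edgeR FDR = 8.1e-22). C1MV held 112, 77.1, 104 and 72.7 CPM and C1HV 64.6, 68.1, 83.9 and 70.9 CPM, both overlapping with their own day 0 libraries. Their log2 fold changes were -0.05 (SE 0.12, edgeR FDR = 0.787) and 0.04 (SE 0.13, edgeR FDR = 0.809), and the sign of each depended on single libraries. With inducers kept, C1MDT went to 51.9, 59.3, 33.5 and 49.5 CPM and C1HDT to 43.9, 50.6, 47.3 and 31 CPM. These were decreases of -1.0 from C1M (SE 0.13, edgeR FDR = 8.1e-10) and -0.71 from C1H (SE 0.14, edgeR FDR = 7.2e-06).

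**Figure D3:**
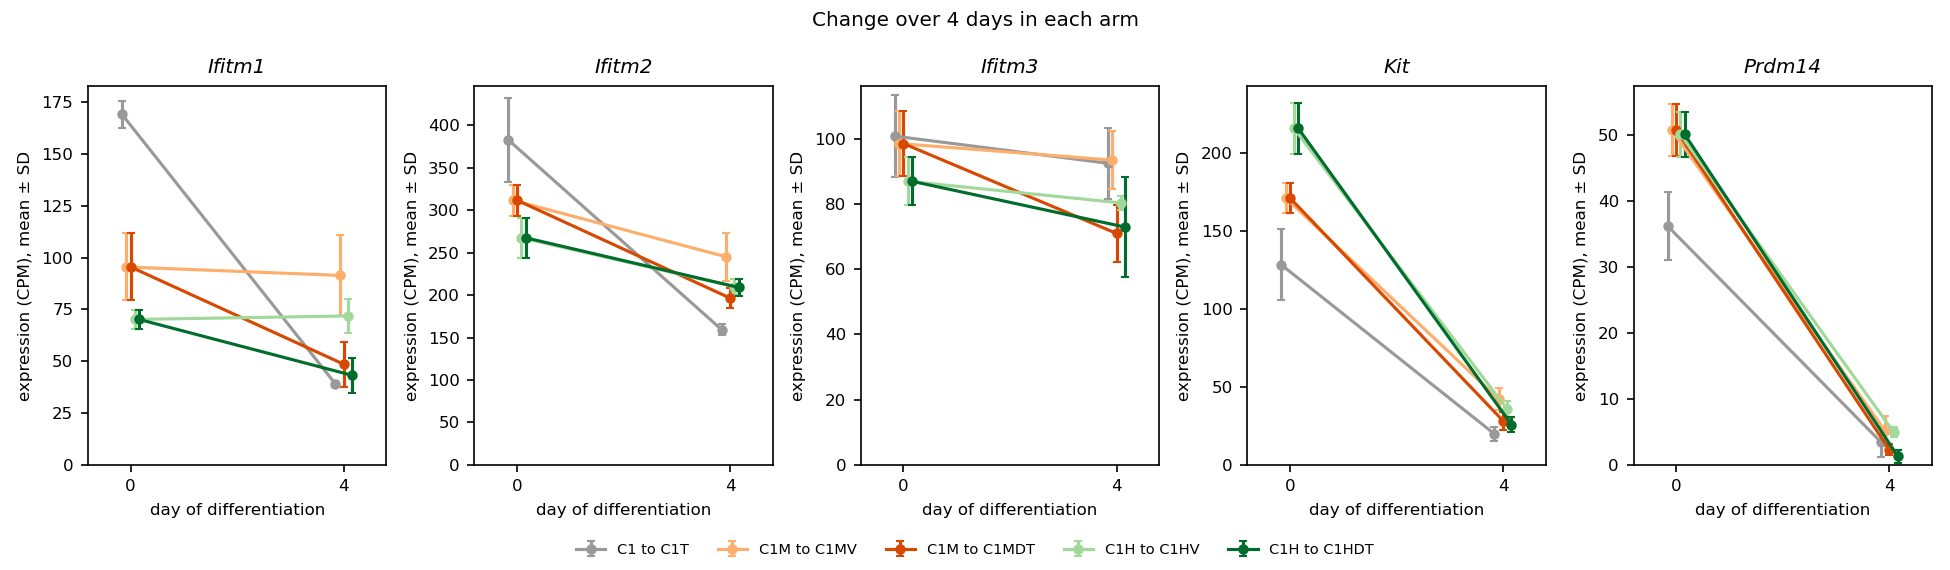
Mean ± SD of CPM (vertical axis, from 0) at day 0 and day 4 in each arm for the IFITM genes, Kit and Prdm14; the C1M and C1H means appear in 2 arms each. Ifitm1 drops from 169 to 39.2 CPM in the C1 to C1T arm and stays near 95.5 and 70.2 CPM in the withdrawn arms.

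The difference between arms was tested directly. Relative to the change in C1T, that of Ifitm1 was higher by 2.06 in C1MV (SE 0.18, edgeR FDR = 1.5e-14), 2.15 in C1HV (SE 0.19, edgeR FDR = 1.5e-14), 1.11 in C1MDT (SE 0.19, edgeR FDR = 4.6e-06) and 1.39 in C1HDT (SE 0.19, edgeR FDR = 3.7e-08). Each of these arms started from a lower level than C1. At day 4 itself C1MV and C1HV were above C1T by 1.24 (SE 0.14, edgeR FDR = 5.2e-11) and 0.88 (SE 0.15, edgeR FDR = 2.2e-06) without overlap, whereas C1MDT vs C1T gave 0.28 (SE 0.15, edgeR FDR = 0.149) and C1HDT vs C1T 0.12 (SE 0.15, edgeR FDR = 0.595). Without C1MDT replicate 3 the former was 0.45 (edgeR FDR = 0.00962). Ifitm1 was lower with dox and TMP kept than with both withdrawn, by -0.95 in C1MDT vs C1MV (SE 0.13, edgeR FDR = 7e-08) and -0.76 in C1HDT vs C1HV (SE 0.14, edgeR FDR = 4e-05), again without overlap.

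Ifitm2 was also highest in C1 and lowest in C1T. C1 held 434, 325, 360 and 412 CPM, C1M 316, 329, 286 and 317 CPM, and C1H 248, 270, 252 and 299 CPM. C1M vs C1 gave -0.30 (SE 0.08, edgeR FDR = 0.00118) with 1 library of C1M inside the range of C1, and C1H vs C1 gave -0.52 (SE 0.08, edgeR FDR = 1e-08) without overlap. By day 4 C1T held 152 to 169 CPM, C1MV 225 to 285, C1HV 200 to 221, C1MDT 182 to 209 and C1HDT 199 to 219. C1T was below each of the other 4 groups in every library.

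Over the 4 days Ifitm2 fell in all 5 arms, by a log2 fold change of -1.27 in C1T vs C1 (edgeR FDR = 4.2e-31, SE 0.08) and by -0.34 to -0.67 in the induced arms. Relative to C1T the change was higher by 0.60 in C1MDT (edgeR FDR = 8.8e-06, SE 0.11) and by 0.91 to 0.92 in the other 3 arms. At day 4 the rise over C1T was largest in C1MV, at 0.62 (edgeR FDR = 1.3e-10, SE 0.08), and 0.30 to 0.40 in the others. C1MDT was below C1MV by -0.33 (edgeR FDR = 0.00152, SE 0.08), with edgeR FDR = 0.0571 without C1MV replicate 1. C1HDT and C1HV overlapped, at 0.997-fold (edgeR FDR = 0.982).

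Ifitm3, the best known of the 3 as a germ cell marker, was the steadiest. Its group means ran from 70.9 ± 8.7 CPM in C1MDT to 101 ± 13 CPM in C1, and neighbours in that order (C1, C1M, C1MV, C1T, C1H, C1HV, C1HDT, C1MDT) differed by less than the larger SD throughout. Neither C1M vs C1 (-0.03, SE 0.10, edgeR FDR = 0.871) nor C1H vs C1 (-0.21, SE 0.11, edgeR FDR = 0.133) passed. The lower levels were those of constant induction, where C1MDT held 68.0, 76.3, 60.01 and 79.5 CPM against 92.5, 94.6, 93.5 and 113 CPM in C1M, a log2 fold change of -0.47 (edgeR FDR = 5.1e-05, SE 0.10). C1MDT was also below C1T by -0.37 (edgeR FDR = 0.00369, SE 0.11) and below C1MV by -0.40 (edgeR FDR = 0.0044, SE 0.11), without overlap. Leaving out C1MDT replicate 3 brought these to -0.29 (edgeR FDR = 0.0501) and -0.32 (edgeR FDR = 0.0659), and leaving out C1MV replicate 1 brought the latter to -0.32 (edgeR FDR = 0.058).

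For C1HDT, with 94.2, 72.1, 67.4 and 57.9 CPM of Ifitm3, the calls were weak. The value of -0.25 vs C1H (SE 0.11, edgeR FDR = 0.0372) lost its call without any one of 5 libraries, at -0.24 to -0.14 (edgeR FDR from 0.0615 to 0.319). That of -0.33 vs C1T (SE 0.11, edgeR FDR = 0.0115) lost it without C1T replicate 4 (-0.26, edgeR FDR = 0.085) or C1HDT replicate 4 (-0.22, edgeR FDR = 0.154). C1HDT vs C1HV gave -0.14 (SE 0.11, edgeR FDR = 0.462). The change over 4 days did not differ from that of C1T past the threshold in any of the 4 induced arms with edgeR or DESeq2, and the one with an unadjusted p under 0.05 was C1MDT (-0.35, SE 0.15, edgeR FDR = 0.0824).

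Ifitm1 and Ifitm2 correlated at r = 0.864 over the 32 libraries, and at 0.863 and 0.693 within day 0 and day 4, while Ifitm3 correlated with Ifitm1 at 0.607 over all libraries (0.553 and 0.419 within the days) and with Ifitm2 at 0.410 (0.329 and -0.070). Lrig3 (r = 0.887) and Grasp (r = 0.883) were most like Ifitm1, Grn (r = 0.945) and Add1 (r = 0.930) most like Ifitm2, and Cdo1 (r = 0.792) and Apoc1 (r = 0.768) most like Ifitm3. The means of Ifitm1 ran C1, C1M, C1MV, C1HV, C1H, C1MDT, C1HDT and C1T, with C1M and C1MV, C1HV and C1H, and the last 3 groups closer than the larger SD. Those of Ifitm2 ran C1, C1M, C1H, C1MV, C1HV, C1HDT, C1MDT and C1T, with only C1H and C1MV, and C1HV and C1HDT, that close.

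The other IFITM genes were scarce, and together Ifitm5, Ifitm6, Ifitm7 and Ifitm10 came to at most 13.7 CPM in any library. In both day 0 comparisons with C1, 0 of these 4 passed with edgeR, and 1 of them, Ifitm7, had an unadjusted p under 0.05 in each. Genes of the interferon response were read beside Ifitm1 at day 0. Of 17 listed, 10 were tested, and the 2 that passed in C1M vs C1, like the 2 in C1H vs C1, were higher, as were 14.3% and 13.8% of all genes. Isg15, a typical interferon-induced gene, had no group mean above 0.857 CPM. Over the 4 days in C1T vs C1, 3 of the 10 rose and 5 fell (24.4% and 24.9% of all genes). At day 4, where Ifitm1 and Ifitm2 were above C1T, 4 were higher and 1 lower in C1MV vs C1T (15.3% and 14.9% of all genes), and the 3 that passed in C1HV vs C1T were higher (13.7%). In C1MDT vs C1T 3 were higher and 0 lower (16.9% and 16.5%), and in C1HDT vs C1T 3 higher and 2 lower (17.4% and 16.1%). Ifitm1 did not pass in either of these comparisons, while Ifitm2 did. The part of an interferon response in the IFITM levels was not tested.

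The RNA-binding members were at the low end. Dnd1 (ENSMUSG00000044595, on chromosome 18), whose protein works with NANOS proteins on messenger RNAs of germ cells, overlaps Wdr55 on the other strand, and the strand setting of the counting is not given in the sources used here. It was counted at 5.87, 3.96, 5.19 and 8.15 CPM in C1, 3.82, 2.84, 2.93 and 0.412 CPM in C1M, and 4.77, 4.53, 4.03 and 2.52 CPM in C1H. All C1M libraries were below those of C1, with a log2 fold change of -1.20 (edgeR FDR = 0.014, SE 0.39) that fell short without C1 replicate 4 (-0.99, edgeR FDR = 0.0836) or C1M replicate 4 (-0.88, edgeR FDR = 0.0926), which held 1 read. C1H overlapped with C1, at -0.54 (SE 0.36, edgeR FDR = 0.276).

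At day 4 Dnd1 lay between 2.91 and 9.13 CPM in C1T, 5.64 and 8.72 in C1MV, 8.07 and 9.21 in C1MDT, 3.25 and 9.46 in C1HV, and 8.17 and 13.3 in C1HDT. It rose 2.97-fold in C1MV vs C1M (log2 fold change 1.57, SE 0.37, edgeR FDR = 0.000145), 3.32-fold in C1MDT vs C1M (1.73, SE 0.35, edgeR FDR = 9.5e-06) and 2.58-fold in C1HDT vs C1H (1.36, SE 0.31, edgeR FDR = 7.1e-05), each without overlap. C1T vs C1 (0.22, SE 0.34, edgeR FDR = 0.62) and C1HV vs C1H (0.61, SE 0.36, edgeR FDR = 0.16) did not pass. Of the differences from the change in C1T, those of C1MV (1.34, SE 0.51, edgeR FDR = 0.0413) and C1MDT (1.51, SE 0.50, edgeR FDR = 0.0164) passed, the first not with DESeq2 (adjusted p = 0.0523), without a filter on low counts (edgeR FDR = 0.0503) or without any one of 6 libraries, and the second not without C1 replicate 4, C1M replicate 4 or C1T replicate 2. That of C1HDT was 1.14 (SE 0.47, edgeR FDR = 0.0601) and passed without any one of 4 libraries. In the comparisons between day 4 groups Dnd1 did not pass, and the difference nearest to it, C1HDT vs C1HV at 0.76 (SE 0.31, edgeR FDR = 0.0825), passed without C1HV replicate 3 (1.10, edgeR FDR = 0.0266).

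The Dnd1 means ran C1HDT, C1MDT, C1MV, C1T, C1HV, C1, C1H and C1M, with gaps beyond the larger SD only between the last 3. Suclg1 (r = 0.779) and Grk6 (r = 0.771) were most like it, and with Prdm14 it correlated at -0.656 over all libraries, -0.542 over those of day 0 and -0.285 over those of day 4.

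Nanos3 (ENSMUSG00000056155; chromosome 8, 84173731 to 84185217, minus strand), whose transcript overlaps Mir181c and Mir181d, was at or near the floor everywhere. It had 70 reads in all 32 libraries together, 3 or fewer in 25 of them, 0 in 5 and 8 at most. Group means lay between 0.463 and 1.18 CPM, their order had no gap beyond the larger SD, and all libraries of C1H and of C1T had 3 counts or fewer. Nanos3 passed in 0 of 16 comparisons with edgeR, where its lowest unadjusted p was 0.208, and in 0 with DESeq2, so that a difference was not detectable at this depth, and no fold is given.

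Other genes of the pathway were read beside the members. Among 15 listed upstream signals, Bmp4, which induces germ cell fate in the epiblast, was at 49.7 ± 3.6 CPM in C1T and between 4.52 and 10.2 CPM on average elsewhere, lower than C1T by -2.51 in C1MV (SE 0.22, edgeR FDR = 1.7e-20) and by -3.45 in C1MDT (SE 0.23, edgeR FDR = 2e-28). T, the WNT target that acts ahead of Prdm1 and Prdm14 in the embryo, was listed at no more than 0.507 CPM on average in any group and was not tested. Of the 14 that were tested, 8 rose and 2 fell in C1T vs C1 (24.4% and 24.9% of all genes). In each of C1M vs C1 and C1H vs C1, 3 were higher and 1 lower, beside 14.3% and 12% of all genes in the former and 13.8% and 12.1% in the latter.

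Of 17 partners and genes of the early germ cell programme, 12 passed over the 4 days in C1T vs C1, 5 higher and 7 lower, where 24.4% of all genes tested were higher and 24.9% lower. Tfap2c, the partner of Prdm1 and Prdm14, was near 200 CPM at day 0 (195 ± 17 in C1, 207 ± 1.8 in C1M and 194 ± 18 in C1H), and C1M vs C1 (0.09, SE 0.09, edgeR FDR = 0.5) and C1H vs C1 (-0.01, SE 0.09, edgeR FDR = 0.96) did not pass. By day 4 C1T held 48.2 ± 5.1 CPM of it, C1MV 90.1 ± 17, C1HV 81.6 ± 5.4, C1MDT 41.6 ± 6.9 and C1HDT 39.7 ± 3.1. Like Prdm1, Kit and Ifitm1, it was higher in both withdrawn groups than in C1T, by 0.93 in C1MV (SE 0.11, edgeR FDR = 3e-12) and 0.77 in C1HV (SE 0.12, edgeR FDR = 1.4e-08). Dppa3, also called Stella, stayed at 1.69 CPM or less on average.

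Nanog, a factor of naive pluripotency and of germ cells, fell over the 4 days from 581 ± 44 CPM in C1 to 90.0 ± 5.7 in C1T, and was at 184 ± 30 CPM in C1MV and 81.9 ± 7.8 in C1MDT. Sox2 fell in every arm as well, from 860 ± 30 CPM in C1 to 443 ± 28 in C1T. Pou5f1 was at 68.8 ± 11 CPM in C1 and 64.5 ± 4.1 in C1T, and was lower than C1 in C1M (-0.72, SE 0.12, edgeR FDR = 9.3e-07) and C1H (-0.79, SE 0.12, edgeR FDR = 7.3e-08). The naive ESC markers as a list also separated the withdrawn groups, with 7 of 8 higher and 1 lower than C1T in each of C1MV (median log2 fold change 0.98, against 0.01 over all genes) and C1HV (median 0.85, against 0.00). Of all genes, 15.3% were higher and 14.9% lower in C1MV vs C1T, and 13.7% and 14.3% in C1HV vs C1T. Under constant induction all 8 naive markers were below the withdrawn group in both fractions, with medians of -1.38 for C1MDT vs C1MV (-0.02 over all genes) and -1.24 for C1HDT vs C1HV (0 over all genes). Of all genes, 5.95% were lower in the former and 6.88% in the latter. Markers of the formative epiblast, the state that follows the naive one, took the other direction. Their summed level was 1373 to 1655 CPM in C1T and 671 to 789 CPM in C1MV and C1HV, and 5 of 6 passed in each of C1MV vs C1T (median -1.36) and C1HV vs C1T (median -1.20), all lower (14.9% and 14.3% of all genes were). Under constant induction 5 of 6 passed in C1MDT vs C1MV (median 0.74) and 4 in C1HDT vs C1HV (median 0.54), all higher (6.64% and 9.1% of all genes were). What these states contributed to the levels of Prdm1, Kit, Ifitm1 and Tfap2c was not tested.

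Genes of later germ cells were counted too. Of 12 listed, 11 were tested, and all 11 were higher in C1M and in C1H than in C1 (14.3% and 13.8% of all genes were), where their summed level was 88.2 to 94.5 CPM against 300 to 316 and 345 to 367 CPM. The list was chosen with earlier results of these data known, so this count is a description only. Dazl, which encodes an RNA-binding protein of germ cells, was at 18.3 ± 2.3 CPM in C1 and 76.6 ± 5.1 in C1M (2.07, SE 0.15, edgeR FDR = 9.4e-25), and Ddx4, which encodes a helicase of germ cell granules, at 4.49 ± 2.5 and 12.3 ± 1 (1.40, SE 0.28, edgeR FDR = 3.7e-05). The 8 specification genes had no such common direction in these comparisons. Over the 4 days, 5 of the 11 later genes rose and 1 fell in C1T vs C1 (24.4% and 24.9% of all genes). In C1MV vs C1M 1 rose and 6 fell (22% and 23.9%), and in C1MDT vs C1M 2 and 8 (24.5% and 27.9%). In C1HV vs C1H 1 rose and 6 fell (22% and 25.1%), and in C1HDT vs C1H 1 and 8 (26.3% and 29.4%). Dazl fell in the induced arms (-2.18 in C1MV vs C1M, SE 0.15, edgeR FDR = 7.1e-28), as Kit and Prdm14 did, and in C1T vs C1 it did not pass (0.04, SE 0.19, edgeR FDR = 0.89).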

How the data were processed

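RNA of 32 cultures was prepared with QuantSeq and sequenced single-end. The study names bbduk for trimming, STAR for alignment to mm10 (in the submitters' processing notes too) and htseq-count for counting; the authors deposited whole-number counts of uniquely aligned reads per Ensembl gene, without normalization. Rows that name no gene stayed out of library sizes: of all entries, 49.4 to 56.4% were not uniquely aligned, 4.72 to 11.2% had no feature and 0.234 to 0.29% were ambiguous. Fewer unique reads reach genes with near-identical copies, Ifitm2 among them.

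Groups came from the sample labels, and doses and times from the study's methods. The labels describe serum with LIF. The study describes 2i/L before differentiation, that is LIF with the inhibitors of GSK3 and MEK, and its description is used here. GENCODE's GRCm38 annotation paired symbols with Ensembl identifiers. After TMM scaling, counts were tested with edgeR 4.0.16 (R 4.3.3; quasi-likelihood, robust) in one fit of 8 groups over 32 libraries, for the 15280 genes that reached 1 CPM in 4 or more libraries. FDR is the Benjamini-Hochberg adjusted p over these genes, with a threshold of 0.05; log2 CPM used a prior count of 2. There were 16 comparisons of 2 groups and 4 interactions (change over 4 days minus that of C1T). Comparisons share groups and are not independent. The labels name biological replicates without saying what separates them, and a figure legend of the study places the 4 samples of a group in the same experiment. The p-values therefore measure the spread between these cultures and may not cover that between experiments. No pair of libraries within a group agreed within sampling noise (chi-square per gene of 1.51 to 4.24 over 48 pairs). Simulated 3-fold changes of 200 genes were recovered to 99% for C1M vs C1 (2.94% of calls false) and 97% for the interaction of C1MV (4.9% false). The changed genes were drawn from the better counted ones, and all groups otherwise had the same means. These rates therefore do not apply to genes with few reads, such as Nanos3, Prdm1 and Dnd1, or to smaller changes.

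Alternatives were RLE size factors, library size only, DESeq2 1.42.0, other filters, only the groups compared, a replicate block and each library left out. The members and lists were chosen with earlier results of these data known. Named genes are all members, a fixed set of partners, and the 2 tested genes with the highest Pearson's r to each member; Ifitm5, Ifitm6, Ifitm7 and Ifitm10 are the listed relatives. A member of the interferon list, Mx2, was not analysed here. Promoter sequences are RefSeq's for GRCm38.p6, found for 6 of the 8 members.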

Additional observations from a re-analysis of the deposited data

Results flagged for a closer look

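In 7 of 64 sets of 4 libraries, 1 library lay far from the other 3, where chance gives about 1 in 20. Prdm1 was at 9.75 CPM in C1H replicate 2 against 2.56 to 3.78 CPM in the others, Prdm14 at 2.72 CPM in C1HDT replicate 1 against 0.681 to 0.955, and Dnd1 at 2.91 CPM in C1T replicate 2 against 8.10 to 9.13. Ifitm1 was at 41.2 CPM in C1T replicate 2 against 38.4 to 38.6, a gap that is small beside the differences between groups. Ifitm3 was at 119 CPM in C1 replicate 2 against 92.9 to 97.3, at 113 CPM in C1M replicate 4 against 92.5 to 94.6, and at 107 CPM in C1MV replicate 1 against 87.6 to 89.9.

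The change over 4 days differed from that of C1T, as a tested difference of log2 fold changes (edgeR), in 13 of 32 cases, where 21.9 to 25.2% of all genes tested passed in each of the 4 arms. For Ifitm1 the difference was 2.06 for C1MV and 2.15 for C1HV, and 1.11 for C1MDT and 1.39 for C1HDT. For Ifitm2 it was 0.92, 0.92, 0.60 and 0.91 in the same order. For Dnd1 it was 1.34 in C1MV and 1.51 in C1MDT, for Kit 0.72 in C1MV, and in C1HDT it was -1.76 for Prdm1 and -1.69 for Prdm14. The 4 differences share the libraries of C1 and C1T.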

How the results depend on the processing

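Of 2281 recomputed member fold changes (Nanos3 aside), 2179 kept direction and call, 55 lost the call, 11 gained it and 36 changed sign, all 36 among changes that had not passed. With library size only, the change of Ifitm3 in C1M vs C1 was 0.033, and 0 of 64 group means moved by more than 1 SD. Over all genes that setting gave 2638 higher and 1447 lower in C1M vs C1 (2184 and 1838 with TMM), 2732 and 1376 in C1H vs C1 (2113 and 1852), 2575 and 1762 in C1HV vs C1T (2091 and 2182) and 1097 and 1331 in C1HDT vs C1HV (1390 and 1052). A fit of only the groups compared called 601 genes in C1H vs C1M (271 in the fit of all groups), 1 in C1HDT vs C1MDT (0) and 0 in C1HV vs C1MV (1), where no filter on low counts gave 3. Of the counts of members past the threshold, those of C1M vs C1 and C1MV vs C1M were 3 each with a CPM of at least 1 in all libraries, because Prdm14 and Dnd1 were then not tested. The calls of both genes in other comparisons drop out with this filter as well. The numbers of replicates did not pair the libraries (mean r of deviations -0.0016 for the same number and 0.00054 for others, and 0 of 28 pairs of groups had every r over 0.1). With a replicate block C1H vs C1M gave 1 call (Ifitm1 lost, edgeR FDR = 0.0688), and it changed no other call.

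With single libraries left out, the counts ran from 3 to 5 in C1H vs C1, 0 to 1 in C1H vs C1M, 1 to 3 in C1HDT vs C1T and 3 to 6 in C1MDT vs C1MV. Among changes with a sign that depended on 1 library, Prdm1 ran from -0.30 to 0.49 in C1H vs C1M, -0.41 to 0.38 in C1HDT vs C1H and -0.30 to 0.016 in C1MDT vs C1T, and Prdm14 from -0.075 to 0.021 in C1H vs C1M and -0.16 to 0.23 in C1HV vs C1MV. Ifitm1 ran from -0.15 to 0.051 in C1MV vs C1M and -0.025 to 0.096 in C1HV vs C1H, Ifitm2 from -0.045 to 0.022 in C1HDT vs C1HV, and Dnd1 from -0.12 to 0.30 in C1MV vs C1T and -0.50 to 0.042 in C1HV vs C1T. Ifitm3 ran from -0.10 to 0.038 in C1M vs C1, -0.036 to 0.11 in C1MV vs C1T and -0.13 to 0.14 in C1HDT vs C1MDT. Relative to the change in C1T, Prdm1 ran from -0.012 to 0.36 in C1MV and -0.48 to 0.31 in C1HV, Prdm14 from -0.15 to 0.50 in C1MV and -0.080 to 0.57 in C1HV, Ifitm3 from -0.035 to 0.13 in C1HV and -0.26 to 0.011 in C1HDT, and Kit from -0.016 to 0.25 in C1HV. The cause was not tested in any of these. Depth limits Nanos3 in every group, Prdm14 at day 4 and Prdm1 and Dnd1 at day 0, where a few reads per library carry each value.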
